A study of Mus musculus with 8 samples.

Results

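Open chromatin was compared between mouse retinal ganglion cells (RGCs) that overexpressed Ezh2-Y726D, a catalytically dead form of the histone methyltransferase Ezh2, and RGCs that overexpressed GFP. The comparison took 5 of the 8 peak lists of the series, 2 from Ezh2-Y726D and 3 from GFP, and both groups were chosen by their labels alone. All mice were C57BL/6J. The virus, AAV2 carrying either insert, was injected into the vitreous, optic nerve crush (ONC) followed after 2 weeks in both groups, and 50000 cells sorted 3 days after ONC went into each library. Cells were sorted as living and positive for CD90.2, the product of Thy1, which mouse RGCs share with T cells. The labels did not say whether replicates came from separate animals, so p-values measure the spread between these samples, which may be technical. Peaks of the 5 lists that shared at least 1 bp on chromosomes 1 to 19 formed 167912 merged regions. Opened regions were those where both Ezh2-Y726D lists and no GFP list had a peak, and closed regions those where all 3 GFP lists and no Ezh2-Y726D list did.

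Ezh2 is the catalytic subunit of Polycomb repressive complex 2 (PRC2), which places methyl groups on lysine 27 of histone H3 and keeps developmental genes silent. Subunits such as Eed and Suz12 are needed for its activity, and Hox genes are its textbook targets. ATAC-seq reads chromatin through a transposase that cuts DNA where nucleosomes and other proteins leave it free, so promoters and enhancers in use appear as peaks. Every cell in the tube contributes, and a peak near a gene of another cell type may come from cells of that type.

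Promoter sequences are shown for 6 genes that illustrate the groups of regions described further on, from the RefSeq windows of GRCm38.p6 that run from 250 bases before to 50 bases after a gene's start. Regions over the first 5 windows closed and the region over the last opened. Capitals mark the motifs searched on both strands, which were GAGGAAGT (ETS factors, among them PU.1), TGTGGTT (RUNX), TGANTCA (AP-1), TAATCC (CRX and OTX), GAAANNGAA (IRF) and CAGCTG (E-box).
Gzmb, chr14:56262285-56262584, minus strand: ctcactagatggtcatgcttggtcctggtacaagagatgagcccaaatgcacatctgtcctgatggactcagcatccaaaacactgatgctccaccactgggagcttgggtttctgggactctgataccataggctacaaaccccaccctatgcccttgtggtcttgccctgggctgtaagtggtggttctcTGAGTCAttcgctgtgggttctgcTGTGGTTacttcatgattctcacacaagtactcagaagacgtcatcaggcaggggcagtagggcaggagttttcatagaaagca
Il18rap, chr1:40515112-40515411, plus strand: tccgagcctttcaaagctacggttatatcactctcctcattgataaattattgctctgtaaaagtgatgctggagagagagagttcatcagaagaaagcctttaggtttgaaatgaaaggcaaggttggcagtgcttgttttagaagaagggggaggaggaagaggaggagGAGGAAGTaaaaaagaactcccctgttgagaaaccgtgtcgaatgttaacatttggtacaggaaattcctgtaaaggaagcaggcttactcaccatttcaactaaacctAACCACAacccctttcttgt
Cd53, chr3:106790100-106790399, minus strand: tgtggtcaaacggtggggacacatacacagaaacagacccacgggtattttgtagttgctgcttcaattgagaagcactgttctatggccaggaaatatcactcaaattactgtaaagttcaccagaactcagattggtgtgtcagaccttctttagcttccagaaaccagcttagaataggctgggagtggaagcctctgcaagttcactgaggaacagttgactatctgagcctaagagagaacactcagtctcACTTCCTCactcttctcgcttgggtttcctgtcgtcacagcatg
Ctss, chr3:95526536-95526835, plus strand: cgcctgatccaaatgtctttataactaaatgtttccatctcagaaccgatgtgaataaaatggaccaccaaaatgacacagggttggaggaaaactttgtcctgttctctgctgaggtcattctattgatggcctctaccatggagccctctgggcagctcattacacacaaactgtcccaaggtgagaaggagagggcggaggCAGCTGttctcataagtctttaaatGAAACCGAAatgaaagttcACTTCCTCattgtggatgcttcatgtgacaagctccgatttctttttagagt
Hoxd9, chr2:74697513-74697812, plus strand: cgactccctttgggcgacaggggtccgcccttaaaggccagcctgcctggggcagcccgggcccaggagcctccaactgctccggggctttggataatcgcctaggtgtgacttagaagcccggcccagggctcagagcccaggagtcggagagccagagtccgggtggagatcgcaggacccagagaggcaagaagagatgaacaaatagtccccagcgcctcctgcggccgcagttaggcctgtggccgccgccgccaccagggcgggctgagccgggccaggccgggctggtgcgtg
Slc6a13, chr6:121300038-121300337, plus strand: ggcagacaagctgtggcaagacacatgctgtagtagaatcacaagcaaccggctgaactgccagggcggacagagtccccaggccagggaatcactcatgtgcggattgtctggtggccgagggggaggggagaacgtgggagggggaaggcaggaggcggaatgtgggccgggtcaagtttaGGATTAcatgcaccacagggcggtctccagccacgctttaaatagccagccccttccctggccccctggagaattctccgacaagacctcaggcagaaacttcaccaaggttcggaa
The Gzmb window, of a protease of cytotoxic lymphocytes, held an AP-1 and a RUNX motif. Those of Il18rap, an interleukin 18 receptor subunit, and Cd53, a membrane protein of leukocytes, held an ETS motif each, and the former also a RUNX motif. The window of Ctss, a protease of macrophages and microglia, held an E-box, an IRF and an ETS motif. The Hoxd9 window held no motif and 20 CpG. The window of Slc6a13, a GABA transporter, held a CRX/OTX motif. A match describes these letters and shows no binding.

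The GFP lists held 113763, 111036 and 131339 peaks and the Ezh2-Y726D lists 122258 and 126291, and GFP replicate 3 had the most. The groups overlapped in covered length, with 70.2 ± 8.52 Mb (SD, n = 3) in GFP and 74.2 ± 4.17 Mb (SD, n = 2) in Ezh2-Y726D (exact permutation test, two-sided p = 0.6). Read numbers were not given. A background pileup, inferred from the steps between common fold values, was 3.25, 2.69 and 3.74 in GFP and 2.39 and 3.12 in Ezh2-Y726D, so the groups overlapped in this index of depth. Lists resembled each other more within groups than between them: the Jaccard index, the share of covered bp that 2 lists have in common, averaged 0.684 over 4 pairs within groups (from 0.671 to 0.695) and 0.596 over 6 pairs between groups (from 0.583 to 0.623). The exact permutation test gave a one-sided p = 0.1, the smallest that 10 splits allow. Peaks lay within 1 kb of either end of RGC marker genes in 16, 17 and 17 of 20 genes in GFP and in 19 and 18 in Ezh2-Y726D. Rbpms, Nefl and Thy1 had such a peak in all 5 lists, whereas Sncg had it only in Ezh2-Y726D replicate 1 and Tbr1 only in GFP replicates 2 and 3.

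Ezh2-Y726D samples differed from GFP in both directions, and closed regions, as defined here, ranked higher than opened ones. In all, 8911 regions opened (5.31% of all regions) and 9009 closed (5.37%), while 76707 (45.7%) had a peak in all 5 lists. Strength was taken as the percentile of a region's fold enrichment within each list, averaged over the lists that had it. The median was 28.5 for opened and 39.1 for closed regions, against 64.3 for regions found in all 5 lists. The rule was uneven, since a closed region needed a peak in 3 lists and an opened one in 2. Regions with a peak in 2 GFP lists and no Ezh2-Y726D list had a median of 24.4. How much of the gap in strength came from this rule was not tested. Above percentile 50 lay 754 opened regions and 2747 closed ones, and above percentile 75 lay 6 opened (0.00357% of all regions) and 375 closed ones (0.223%). None of the opened and 21 of the closed regions exceeded percentile 90. The number of opened regions was 14618 without GFP replicate 3 and 18807 and 17521 without Ezh2-Y726D replicates 1 and 2. The number of closed regions above percentile 75 was 646 without Ezh2-Y726D replicate 2. The 6 opened regions above percentile 75 became 12, 13 and 53 without GFP replicates 1, 2 and 3, and 21 and 34 without Ezh2-Y726D replicates 1 and 2. With each peak covering at least 0.5 of its region, 251 opened and 1028 closed regions lay above percentile 75, so the gap in this count was smaller.

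**Figure D1:**
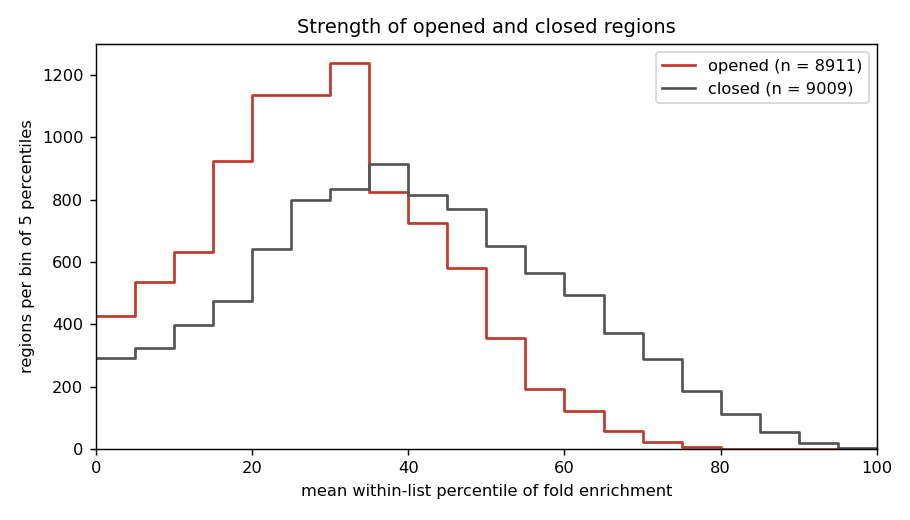
Number of opened and closed regions (y axis, regions per bin of 5 percentiles) by their mean within-list percentile of fold enrichment (x axis). Closed regions reach further right: 375 of them lie above percentile 75, against 6 opened regions, a number that went to between 12 and 53 with a list left out and to 251 with the cover limit of 0.5.

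The strongest closed regions lay at or near genes of immune cells more than once. The region at the start of Il12rb2, the interleukin 12 receptor subunit of T and NK cells (chr6:67375748-67376440), had folds of 10.1, 10.1 and 10.3 over background in the GFP lists and no peak in either Ezh2-Y726D list. A region inside Pdcd1lg2, which encodes a ligand of the checkpoint receptor PD-1 (chr19:29453859-29454727), had folds of 9.89, 9.74 and 11.8 in GFP. A region inside Entpd1, the ectonucleotidase CD39 (chr19:40707876-40708873), had 9.73, 9.22 and 12.5. All 3 stood between percentiles 88.3 and 98.1 of the GFP lists and were absent from both Ezh2-Y726D lists. The region 28627 bp from Dpp4, the surface peptidase CD26, had folds of 10.4, 9.49 and 11.8. The other 4 of the 8 strongest lay 10289 bp from Yae1d1, 12614 bp from Atxn1l, 20472 bp from the tubulin gene Tuba1c and 144232 bp from Reep3, at mean percentiles from 92.9 to 96.3.

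The strongest opened regions were weaker, and none lay at a gene end. The first lay inside Cntnap5c, of the contactin-associated family (chr17:58101953-58102697), with folds of 7.97 and 7.52 in Ezh2-Y726D. Others lay inside Spata19, a gene of sperm mitochondria, inside the zinc finger gene Zfp202 and inside Fhit, a hydrolase gene over a fragile site. The regions near Btbd3, near Gjb5 and in Spata19 shared the same folds, 7.08 and 7.28. Common folds lay in steps of 0.2952 in Ezh2-Y726D replicate 1 and 0.2425 in replicate 2, so regions can share a value. The remaining ones lay 10620 bp from Gc, the vitamin D-binding protein, and 484853 bp from Tbl1xr1, and mean percentiles ranged from 74.4 to 79.7.

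Closed regions were far more frequent at genes of leukocytes than at genes in general. Of 135 genes on 5 lists of leukocyte markers, 52 (38.5%) had a closed region at a gene end, meaning within 1 kb of it, against 554 of all 20665 protein-coding genes (2.68%). All gene lists were written with earlier results of these data known, so such shares are a description and not an independent test. An opened region lay at 1 leukocyte gene (6 without Ezh2-Y726D replicate 1), against 230 of all genes (1.11%). Peaks at gene ends were found for 95, 93 and 108 of the 135 genes in GFP (70.4%, 68.9% and 80.0%) and for 45 and 51 in Ezh2-Y726D (33.3% and 37.8%). The groups did not overlap. Over all protein-coding genes they did not overlap either, but lay close together. There the shares were 69.4%, 69.2% and 70.9% in GFP and 68.5% and 69.2% in Ezh2-Y726D (14298 genes in GFP replicate 2, 14295 in Ezh2-Y726D replicate 2). For 39 of them (28.9%) all GFP lists and no Ezh2-Y726D list had a peak, against 275 of all genes (1.33%). In such bulk samples, fewer cells of a type and less open DNA per cell cannot be told apart. The part that leukocytes had in the other closed regions was not tested.

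**Figure D2:**
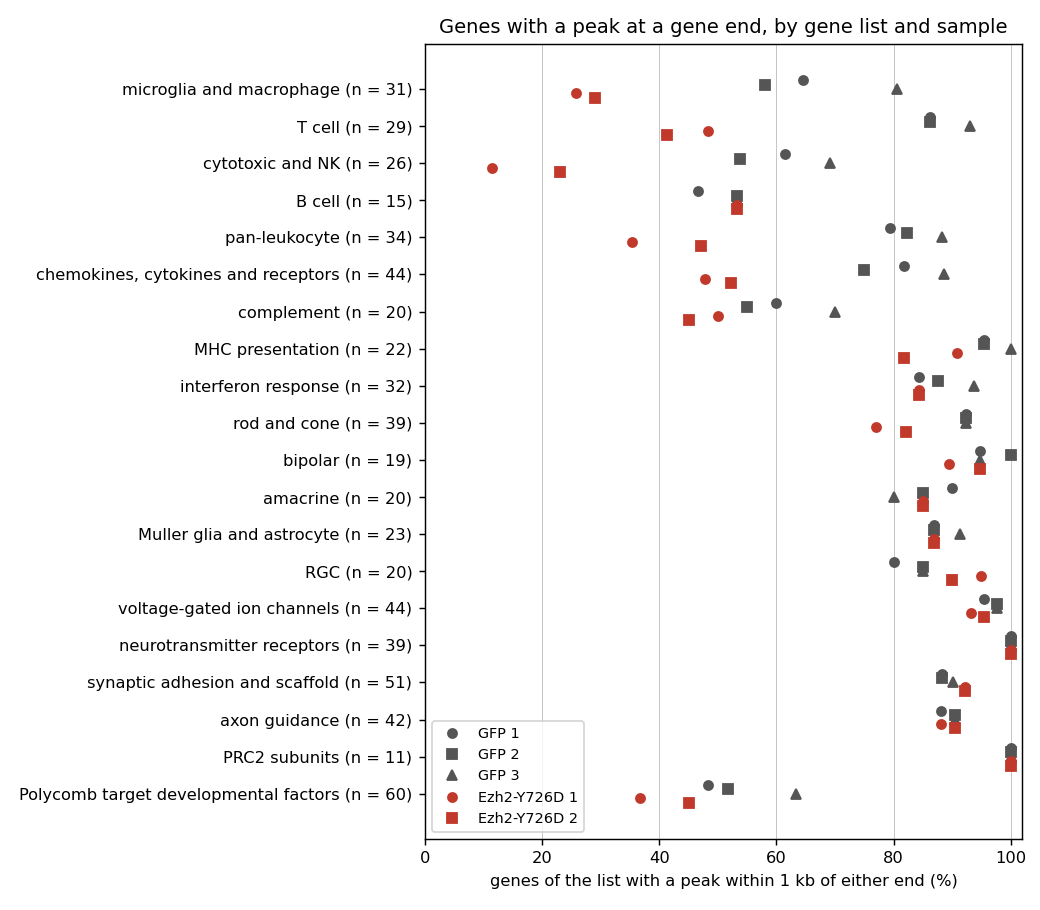
Share of genes (x axis, %) with a peak within 1 kb of either gene end, for each gene list (y axis, n genes) and each sample (grey, GFP; red, Ezh2-Y726D; the symbol gives the replicate). Ezh2-Y726D lies left of GFP for microglia, T cell, cytotoxic and pan-leukocyte genes and for rod and cone genes, and right of GFP for RGC genes.

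Microglia and macrophages, the phagocytes of the retina, showed peaks at 20, 18 and 25 of 31 marker genes in GFP and at 8 and 9 in Ezh2-Y726D. The folds summed over these genes ranged from 102 to 126.2 in GFP and from 71.6 to 73.3 in Ezh2-Y726D. No peak remained at either end of 8 genes that had one in all GFP lists. They were Cx3cr1, the fractalkine receptor, Tyrobp, a signaling adaptor, C1qb of complement, the lysosomal genes Cd68 and Ctss, the costimulatory Cd86, and the Fc receptor genes Fcgr1 and Fcer1g. At Cx3cr1 the highest folds were 7.21, 3.94 and 5.29 in GFP. At C1qb they were 6.36, 4.88 and 6.13. The lost peaks at Cd68, Fcer1g and Ctss were weaker, at mean GFP percentiles of 10.3, 18.7 and 22.8. Not all genes of the list followed. Spi1, which encodes PU.1, had a closed region at an end but also kept its strongest peak, with folds of 11.7, 11.5 and 11.8 in GFP and 13.1 and 12.7 in Ezh2-Y726D. The purinergic receptor gene P2ry12 had 3.44, 4.71 and 4.24 in GFP and 6.03 and 5.70 in Ezh2-Y726D. Aif1 and Csf1r had no gene-end peak in any list.

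T cell genes had peaks at 25, 25 and 27 of 29 genes in GFP and at 14 and 12 in Ezh2-Y726D, and their summed folds ranged from 138.1 to 155.8 and from 67.4 to 76.3. Closed regions lay at the ends of 13 of them. The 11 genes without any remaining gene-end peak were Cd2, Cd28, Cd3g, Cd8a, Cd8b1, Lat, Zap70, Ubash3a, Il2ra, Il7r and Ccr7. They encode the T cell receptor complex, its coreceptors and signaling proteins, cytokine receptors and a homing receptor. At Lat, an adaptor of the T cell receptor, folds were 6.28, 6.87 and 9.25 in GFP. At Cd3e, 1 of its gene-end regions closed (4.71, 5.15 and 5.49 in GFP) while the Ezh2-Y726D lists had another gene-end peak, of 5.02 and 5.58. Cd4, Cd5, Cd27 and Tcf7 kept a gene-end peak in all 5 lists.

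Cytotoxic and natural killer genes kept few peaks in Ezh2-Y726D. Peaks lay at 16, 14 and 18 of 26 genes in GFP and at 3 and 6 in Ezh2-Y726D, with 12 closed at an end. Summed folds ranged from 87.3 to 107.6 in GFP and from 18.2 to 30.7 in Ezh2-Y726D. At Ctla2b, a cathepsin inhibitor, folds were 9.65, 10.4 and 9.57 in GFP, and at Fasl, the ligand of the death receptor Fas, 8.11, 7.14 and 6.80. At Gzmb they were 7.06, 5.70 and 8.65. None of these 3 genes had a gene-end peak in Ezh2-Y726D. Gzmm and Tbx21, the latter a master regulator of these cells, kept peaks in all 5 lists.

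Genes of leukocytes in general followed, with peaks at 27, 28 and 30 of 34 pan-leukocyte genes in GFP and at 12 and 16 in Ezh2-Y726D, and 16 closed at an end. Rac2, a GTPase of blood cells, had folds of 6.08, 6.33 and 6.13, and Ptprc, the leukocyte antigen CD45, 6.05, 4.03 and 5.26 in GFP, both with no gene-end peak in Ezh2-Y726D. B cell genes did not separate, with peaks at 7, 8 and 8 of 15 genes in GFP and at 8 in each Ezh2-Y726D list. Among chemokines, cytokines and their receptors, 36, 33 and 39 of 44 genes had peaks in GFP and 21 and 23 in Ezh2-Y726D, and 17 closed at an end. At Ccl3 and Ccl4, neighboring macrophage chemokines that shared the region, folds were 6.59, 5.97 and 7.92 in GFP. At Tnf they were 4.27, 4.74 and 4.36. Complement genes had peaks at 12, 11 and 14 of 20 genes in GFP and at 10 and 9 in Ezh2-Y726D. Interferon response genes, which many cell types can use, had peaks at 27, 28 and 30 of 32 genes in GFP and at 27 in both Ezh2-Y726D lists, with 1 closed at an end (Oas2). Antigen presentation genes had 21, 21 and 22 of 22 in GFP and 20 and 18 in Ezh2-Y726D, with 3 closed (H2-DMb2, H2-Oa and H2-Ob). By symbol, 26, 23 and 23 of 32 interferon-induced Ifi genes had peaks in GFP and 15 and 16 in Ezh2-Y726D, unlike the interferon response list.

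Promoter windows under closed regions carried motifs of blood cell factors more often than other windows. Of 250 windows that a closed region touched, 14% held the ETS motif, against 3.18% of all 20085 windows and 2.40% of the 12602 windows under regions found in all 5 lists. The RUNX motif was in 12.4%, against 4.77% of all windows, the AP-1 motif in 14.8% against 7.06%, and the IRF motif in 17.2% against 8.09%. The E-box was in 21.6% against 15.6% and CRX/OTX in 7.2% against 6.42%. The 51 windows under opened regions held the ETS motif in 1.96% and the RUNX motif in none, AP-1 in 5.88%, IRF in 13.7%, the E-box in 25.5% and CRX/OTX in 11.8%, so IRF, E-box and CRX/OTX were above their shares of all windows there too. Closed windows were poor in CpG, with a median of 5 against 14 in all windows and 22 under regions found in all lists, and opened windows had a median of 4.

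Photoreceptor genes also lost peaks. Of 39 rod and cone genes, 36 had a gene-end peak in each GFP list, and 30 and 32 had one in the Ezh2-Y726D lists. Summed folds ranged from 199.7 to 217.5 in GFP and from 160.8 to 178.7 in Ezh2-Y726D. No gene-end peak remained at Pde6h, of the cone phosphodiesterase, at Gngt2, of cone transducin, or at Rd3, a regulator of guanylate cyclase. The lost peaks of Pde6h and Gngt2 were weak, at mean GFP percentiles of 19.8 and 7.54, and that of Rd3 stood at 47.2. Closed regions also lay at an end of Nr2e3, a rod transcription factor (4.76, 4.39 and 5.13 in GFP), whose strongest gene-end peak was present at 11.5 in Ezh2-Y726D replicate 2 and missing in replicate 1, and of Cnga1, of the rod cyclic nucleotide channel (3.68, 4.39 and 3.76). An opened region at the rod factor Nrl was weak, with folds of 2.46 and 2.63. Genes of bipolar cells, amacrine cells and Müller glia kept their gene-end peaks in similar numbers: 18, 19 and 18 of 19 bipolar genes in GFP against 17 and 18, 18, 17 and 16 of 20 amacrine genes against 17 and 17, and 20, 20 and 21 of 23 glial genes against 20 and 20. Endothelial genes had 11, 10 and 12 of 20 against 11 and 13. Of 79 ribosomal protein genes, 74 had a gene-end peak in each of the 5 lists.

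Measures of RGC genes did not point one way. A gene-end peak appeared in both Ezh2-Y726D lists and no GFP list at 2 of 20 genes, against 95 of all genes (0.46%). These were Irx2, a homeobox factor (4.02 and 4.09), and Opn4, the photopigment melanopsin of intrinsically photosensitive RGCs (4.13 and 3.40). Summed folds at RGC genes ranged from 85.4 to 101 in GFP and from 101.7 to 102.6 in Ezh2-Y726D. This was not particular to RGC genes. Amacrine genes ranged from 87.5 to 90.95 in GFP and from 95.4 to 97.7 in Ezh2-Y726D. Interferon response genes ranged from 191.8 to 210.5 and from 213.4 to 213.9. The groups overlapped at bipolar and Müller glia genes. The median within-list percentile at the ends of RGC genes went against their rise in summed folds, with 53.2, 56.8 and 55.0 in GFP and 49.1 and 50.1 in Ezh2-Y726D. That of all genes was also lower (from 73.1 to 73.5 and from 70.3 to 70.9). Anywhere in the gene or within 1 kb, 5 of the 20 RGC genes (25%) had a closed region and 5 (25%) an opened one. Of all genes, 16.9% and 13.3% did. Pou4f2, an RGC transcription factor, had folds of 5.04, 5.13 and 4.75 in GFP and 6.03 and 5.86 in Ezh2-Y726D, whereas its relative Pou4f1 had 5.54, 6.78 and 6.28 in GFP and 4.32 and 4.97 in Ezh2-Y726D. These 2 genes went in opposite directions. A closed region at an RGC gene lay at Eomes, which cytotoxic cells also use.

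Opened regions gathered in the bodies of long neuronal genes. Of 176 genes for ion channels, neurotransmitter receptors, synaptic adhesion and axon guidance, 130 (73.9%) held an opened region and 84 (47.7%) a closed one, against 13.3% and 16.9% of all genes. Per 1000 regions in these genes and 1 kb around them, 76.1 opened and 24.96 closed, against 45.1 and 49.4 over all genes. The rates of opening were 90.1 for neurotransmitter receptors, 74.98 for ion channels, 74.1 for axon guidance and 73.1 for synaptic adhesion genes. In contrast, leukocyte genes had 29.2 opened and 222.6 closed per 1000. At their ends neuronal genes hardly differed: 163, 165 and 166 of the 176 had a gene-end peak in GFP and 164 and 166 in Ezh2-Y726D, with 5 opened and 3 closed at an end. Tenm4, a teneurin of synaptic adhesion, gained a weak one (3.25 and 4.12).

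**Figure D3:**
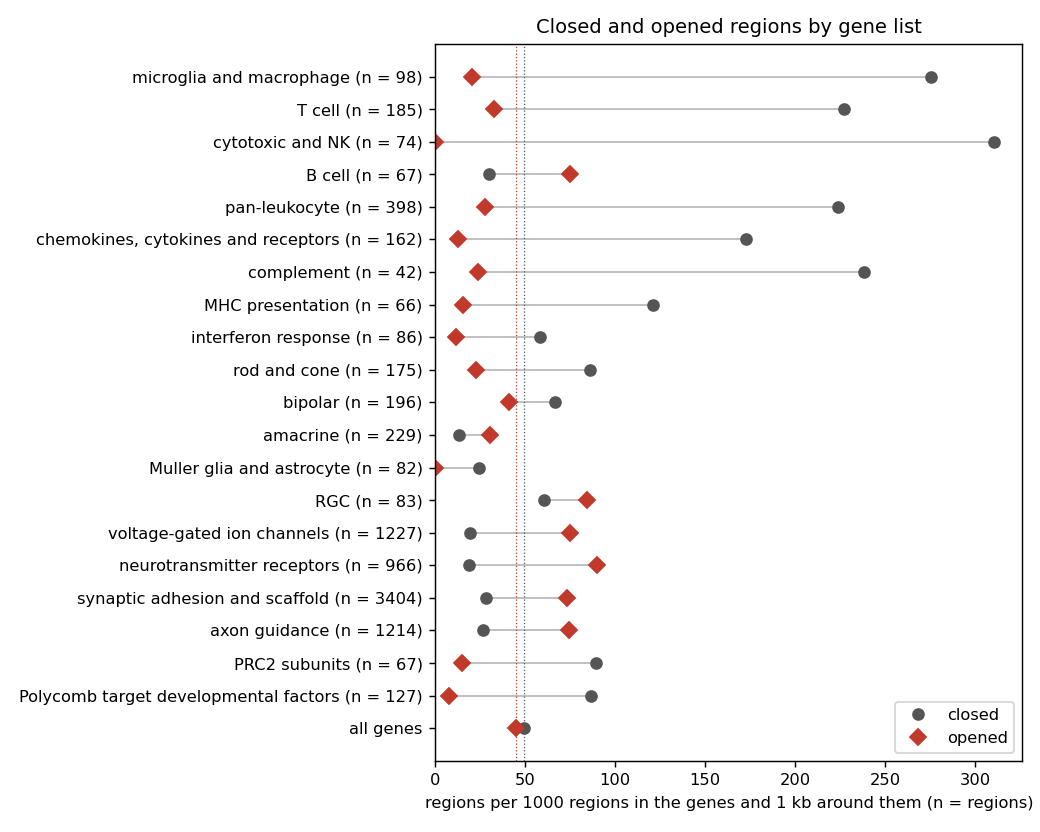
Closed (grey circles) and opened (red diamonds) regions per 1000 regions (x axis) in the genes of each list and 1 kb around them (y axis, n regions), with dotted lines at the rates over all genes. Leukocyte lists other than B cell lie far right for closed regions, and the 4 neuronal function lists lie between 73.1 and 90.1 for opened regions.

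Length went with direction across all genes, with neuronal genes included. In 7343 genes of up to 10 kb, 13.6 of 1000 regions opened and 38.5 closed. Between 50 and 200 kb the rates were 44.4 and 57.1, between 200 and 500 kb 55.2 and 42.1, and in the 216 genes over 500 kb 76.2 and 27.5. The most opened regions per gene were found in Prkg1, a cGMP-dependent kinase (18 of 128 regions), Macrod2 (18 of 119), the synaptic scaffold Magi2 (14 of 116), the potassium channel gene Kcnma1 (13 of 124), the splicing regulator Rbfox1 (13 of 118), Fhit (13 of 82), Tenm2 (12 of 125) and Dlg2 (12 of 166). Lsamp and Cntnap2, both for neuronal adhesion proteins, also had 12. The most closed regions were in Akap13, an anchoring protein of protein kinase A (14 of 52), Thada (13 of 38), the transcription factor gene Foxp1 (11 of 59), the lymphocyte raft gene Rftn1 (10 of 26), Wwox (9 of 86), Ntm (9 of 147), the cell cycle kinase Cdk6 (8 of 28) and Sgms1 (8 of 55). Akap13, Thada, Foxp1, Rftn1 and Cdk6 had closed regions in a larger share of their regions than that of opened regions in any of the 8 genes above. Dlg2 stood high in both directions, with 8 closed regions.

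**Figure D4:**
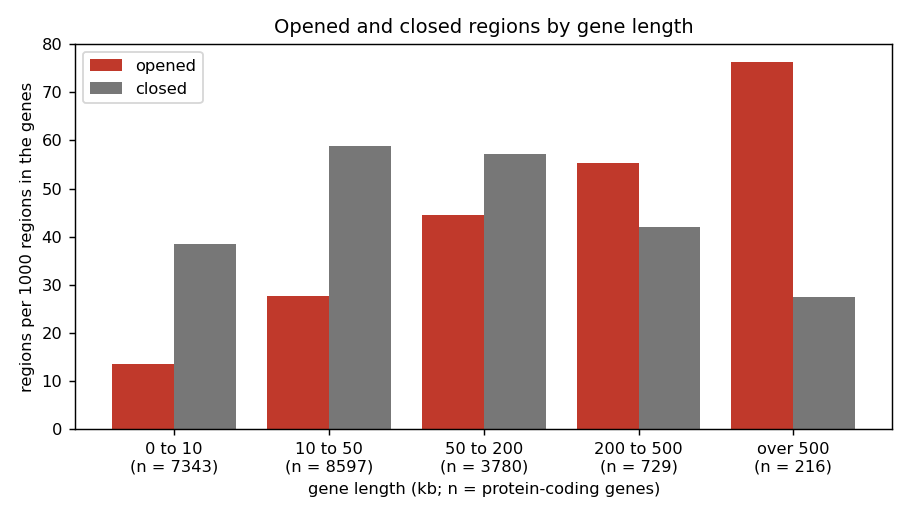
Opened (red) and closed (grey) regions per 1000 regions (y axis) in protein-coding genes and 1 kb around them, by gene length (x axis, kb; n genes). Opened regions go from 13.6 in the shortest genes to 76.2 in the longest, and closed regions are fewest, 27.5, in the longest.

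Opened regions lay away from gene ends, but as often inside genes as others (51.2%, against 51.9% of closed and 51.0% of all regions). Only 2.52% of opened regions lay at a gene end, against 6.02% of closed regions and 10.5% of all regions. Their median distance to a gene end was 53190 bp, against 20991 bp for closed and 28040 bp for all regions, and 34.6%, 15.0% and 22.4% lay more than 100 kb away. Opened regions were also narrower, with a median of 397 bp, against 499 bp for closed and 548 bp for all regions. The share of all peaks at gene ends was 13.6 ± 0.842% (SD, n = 3) in GFP and 12.7 ± 0.153% (SD, n = 2) in Ezh2-Y726D, and the groups overlapped (exact permutation test, two-sided p = 0.4, where 0.2 is the smallest possible). In windows of 1 Mb, closed regions were densest around Akap13 on chromosome 7 (27 of 152 regions), around Btg1 on chromosome 10 (23 of 106), and around Atf3 and Batf3 on chromosome 1 (22 of 124). A window of chromosome 1 with the Slam and Fc receptor genes Slamf1, Cd48, Cd84, Fcgr3 and Fcer1g had 20 of 108, and 1 with Tnfaip3 and Ifngr1 on chromosome 10 had 20 of 101.

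Genes of PRC2 itself were open throughout. All 11 subunit genes had a gene-end peak in all 5 lists, and no region opened or closed at their ends. Elsewhere in these genes, 4 had a closed region and 1 an opened one, where 16.9% and 13.3% of all genes did. At the start of Ezh2 (chr6:47594051-47595712) the folds were 9.72, 10.6 and 8.96 in GFP and 10.3 and 10.8 in Ezh2-Y726D, with overlapping groups. A region within Ezh2 (chr6:47560941-47561807) closed, with folds of 3.86, 3.97 and 4.09 in GFP. Peaks at this gene do not tell how much of the overexpressed protein the cells carried.

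Among Polycomb targets, closed regions at gene ends lay at Hox genes. Of 60 developmental factor genes, 29, 31 and 38 had a gene-end peak in GFP and 22 and 27 in Ezh2-Y726D, 6 (10%) had a closed region at an end and none had an opened one, against 2.68% and 1.11% of all genes. All 6 were Hox genes. Over the 39 Hox genes, which set position along the body axis, 14, 16 and 18 had peaks in GFP and 6 in each Ezh2-Y726D list. Hoxa3, Hoxa10, Hoxb4, Hoxc5, Hoxc10 and Hoxd9 had gene-end peaks in all GFP lists and in no Ezh2-Y726D list. At Hoxb4 folds were 5.07, 5.43 and 5.13 in GFP, and at Hoxa10 they were 4.46, 4.61 and 6.12. At Hoxa3 they were 8.55, 3.34 and 10, from regions that were not called closed. The Hox and leukocyte counts were both lower in Ezh2-Y726D, and the leukocyte part in the Hox counts was not tested. Cdkn2a, a cell cycle inhibitor gene that PRC2 is known to silence, kept its gene-end peak (9.20, 11.0 and 10.4 in GFP and 10.3 and 12.02 in Ezh2-Y726D). A promoter window within the gene (chr4:89282143-89282442), picked after its values were seen, was touched by a closed region of mean percentile 30.0.

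Lists on axon growth showed little at gene ends. Of 26 genes for axon growth inhibitors and their receptors, 1 had an opened region at an end and none had a closed one. It was Slc6a13, whose opened region over the start was weak (3.25 and 3.64 in Ezh2-Y726D), while its strongest gene-end peak had 8.65, 9.66 and 8.17 in GFP and 10.0 and 10.2 in Ezh2-Y726D. Of 39 regeneration-associated genes, 1 closed and 1 opened at an end, close to the 2.68% and 1.11% of all genes. Arg1, the arginase gene that macrophages also use, had folds of 5.65, 5.15 and 6.33 in GFP and no gene-end peak in Ezh2-Y726D. At Hif1a, a hypoxia factor, the opened region was among the weakest of its lists, with folds of 2.63 and 2.17. Of 25 genes for apoptosis and stress kinases none opened or closed at an end, though 8 (32%, against 16.9% of all genes) had a closed region elsewhere. A promoter window of Casp8, an initiator of apoptosis, lay within a closed region of mean percentile 74.2, picked after its values were seen. CDK inhibitor genes had peaks at 6 of 7 in every list.

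Within the 76707 regions that all lists shared, limma compared the ranks, as normal scores of the within-list percentiles. At an adjusted p under 0.05, 536 regions were higher in Ezh2-Y726D (0.699%) and 973 were lower (1.27%). The largest rises were in Cd74, the invariant chain of MHC class II, by 2.37 ± 0.214 (SE) normal-score units, and in B4galt1, a galactosyltransferase, by 2.22 ± 0.153 (limma, adjusted p = 0.0382 for both). The Cd74 region on chromosome 18 stood at percentiles 1.3, 1.3 and 4.2 in GFP and 58.8 and 65.7 in Ezh2-Y726D. Regions in Runx1, a blood cell transcription factor, in Cyba, of the phagocyte oxidase, and in the chemokine gene Cxcl16 rose as well. So did regions in Scgn, a calcium-binding protein of bipolar cells, and in Kcnab2, a potassium channel subunit, and 1 that lay 10341 bp from Os9. Among all 822 regions in or within 1 kb of leukocyte genes, 6 were higher and 1 was lower, against 278 and 563 of the 108037 regions of all genes. Only regions shared by all lists could be called, so these totals also hold regions that limma did not test. Among the untested were 183 closed and 24 opened regions at leukocyte genes, and 5335 and 4869 over all genes. Regions that lost their peak in Ezh2-Y726D thus could not count as lower.

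The largest falls lay mostly outside gene ends. The region at the start of Dhrs9, a retinol dehydrogenase gene, fell by 3.05 ± 0.226 (SE, limma, adjusted p = 0.0382), from folds of 10.6, 9.63 and 11.2 in GFP to 2.95 and 3.15. A region 16107 bp from Tcf7, a T cell transcription factor, fell by 2.55, and 1 that lay 73776 bp from Prkcq, the protein kinase C of T cell activation, fell by 2.38. The others lay near Actb (−2.48), Slc22a8 (−2.46) and Krt18 (−2.39) and in Pdia5 (−2.36) and Pde8b (−2.36). At gene ends 67 genes (0.324%) had a lower and 22 (0.106%) a higher region. Among those lower were Impg2 (−1.64) and Cngb3 (−1.47), both of photoreceptors, and the T cell gene Themis. Among those higher were regions at Tgfb1, a cytokine gene with 2 such regions (both 1.18), and at Skap1, a T cell adaptor.

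**Figure D5:**
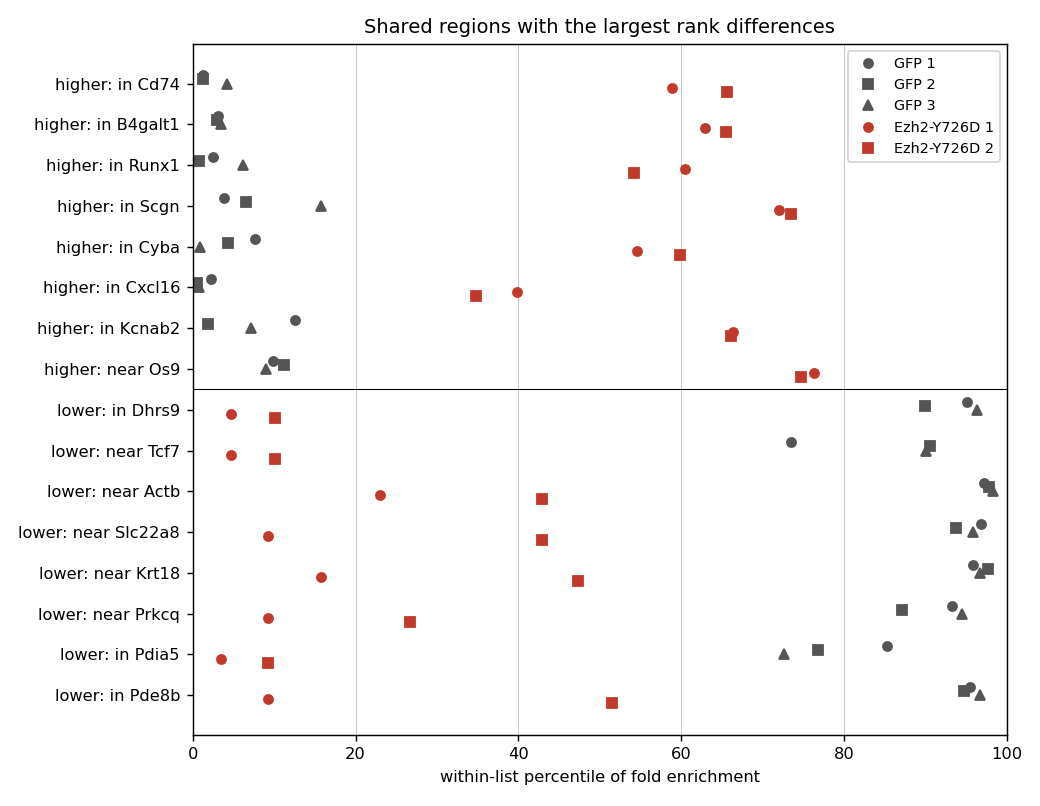
Within-list percentile of fold enrichment (x axis) in each sample for the 8 shared regions per direction with the largest rank differences (y axis, named by gene). Grey symbols are GFP and red ones Ezh2-Y726D. The 16 regions were picked for their differences in these same values, so the gap between groups follows from the choice.

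These calls rested on all 5 lists together. Leaving out any single list, asking each peak to cover at least 0.5 of its region, or adding a replicate block left 0 regions called by limma in either direction. At an unadjusted p under 0.05, 9400 regions were higher and 7180 lower with all lists, and from 5599 to 11626 were higher and from 5751 to 6938 lower when a list was left out. With the cover limit these numbers were 5840 and 4852. No named region reversed its direction in any alternative that could test it.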

How the data were processed

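ATAC-seq peaks of 5 samples of sorted mouse RGCs were analysed, and the 3 lists of active Ezh2 entered only alternatives. The authors called peaks in each sample and deposited narrowPeak lists. The tools named in the labels are cutadapt, Bowtie2, SAMtools, Picard, MACS2 and deepTools, with no versions, on GRCm38. The deposited fold is the ratio of a peak's pileup to the background of its own library, so tests used ranks within a list, and folds are given as values. The deposited −log10 p and −log10 q served as alternatives and filter. No read numbers are given, so depth is known only through the background index, and error covers the spread between samples. Peak names of Ezh2-Y726D replicates 1 and 2 carry the numbers 2 and 3.

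Merged regions were scored by presence and by the highest percentile per list. Ranks were tested with limma 3.58.1 in R 4.3.3 on normal scores, with Benjamini-Hochberg adjustment over all shared regions. Single values were tested by exact permutation over the 10 splits. Other steps used Python 3.11.15. The code for merging, presence and the Jaccard index and the limma fit were tested on simulated data. Genes and promoters came from RefSeq GRCm38.p6. Start sites were given for 16457 of 20665 protein-coding genes, so regions within 1 kb of either gene end were counted, where the design had named starts. Region sequences were not analysed here. Samples were grouped by their labels, but this comparison, the region rule, the 25 gene lists (leukocyte lists included) and 27 symbol families were chosen with earlier results of these data known. Named were Ezh2, the 8 regions or genes that led each direction, up to 4 genes per list by strength, and marker genes with a gene-end peak in a single group. Further list genes were named as examples of those that kept a peak. Peaks outside chromosomes 1 to 19 were left out.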

Additional observations from a re-analysis of the deposited data

Results flagged for a closer look

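Chromosome X was left out of all comparisons above, and its peaks were counted only here. The Ezh2-Y726D lists held 2352 and 2380 peaks on it, above the 1897, 1855 and 2275 of the GFP control lists. They made up 1.89% and 1.85% of all peaks in the Ezh2-Y726D lists and 1.64%, 1.64% and 1.70% in the GFP lists, so the groups did not overlap in either measure. The difference was not tested.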

How the results depend on the processing

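The rank calls depended most on the processing. Against 536 higher and 973 lower regions, limma called 1677 and 2591 with all 8 lists in 1 fit, 1271 and 1916 with lists cut to equal length, 283 and 567 with peaks of −log10 q of at least 5, 144 and 627 when ranked by −log10 p, and 123 and 407 in regions of at least 4 lists. On the percentile scale 341 were higher, and with percentiles taken among shared regions, an alternative added after seeing the data, 2041 were higher and 2770 lower. It called 0 in both directions when each peak had to cover at least 0.5 of its region and, in each of the 5 fits with 1 list left out, again 0; with 1 Ezh2-Y726D list left, its spread was assumed to be that of GFP. The cause was not tested.

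Replicate numbers were checked for pairing. Deviations from the group means correlated at 0.0254 and −0.00924 for GFP and Ezh2-Y726D samples of the same title number. By peak name number they correlated at 0.00924 and 0.0362. The deviations of the Ezh2-Y726D samples from their own mean are mirror images, so these correlations are not independent and cannot decide on pairing. Whether samples of the same number shared a preparation was not tested. With a replicate block by either number limma called 0 regions, and 11424 were higher and 5567 lower at an unadjusted p under 0.05 with the title number and 8031 and 6336 with the peak name number.

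Opened regions ranged from 10213 to 18807 and closed regions above percentile 75 from 312 to 646 with a list left out, and the latter were 1028 when peaks had to cover at least 0.5 of the region. The 6 opened regions above percentile 75 became 12 to 53 with a list left out and 251 with that cover. Within 3 kb of a gene end lay 6.24% of opened and 12.1% of closed regions, and within 1 kb of a known start site 0.853% and 3.04%. Closed regions were found at 5.52% of all genes within 3 kb of an end and at 1.65% within 1 kb of a start. The share of leukocyte genes stayed within 1.5 times, at 48.1% and 38.8%. No difference in peaks, covered length, gene-end share or Jaccard index changed direction.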
